A study of Mus musculus with 8 samples.

Results

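The mitosis and G2/M genes are 42 genes whose products bring a cell into mitosis, condense and capture its chromosomes, guard and trigger their separation and divide the cell. They were chosen by name, and every array probe of the design that carries one of these names was taken, which gave 61 of 55681 probes and 42 of 34797 gene names. The genes were read in common myeloid progenitors (CMPs), bone marrow cells that give rise to granulocytes, macrophages, megakaryocytes and red cells, sorted as Lin- cKit+ Sca-1- CD34+ cells with low Fcγ receptor. All mice were wildtype C57BL/6J, untreated and kept free of pathogens, and the study used both sexes without saying which array held which. The groups were 4 arrays of young mice (young 3, 4, 5 and 6), which the sample labels place at 2 to 3 months and the series description at 3 to 4 months, and 4 arrays of old mice (old 2, 3, 4 and 5), placed at 22 to 24 and at 22 to 26 months. The labels do not say that each array held a different mouse, and the methods state fewer mice per age than there are arrays, without naming the arrays. All 8 were used, and the p-values measure the spread between these samples, part of which may be technical. The question here was whether the transcripts of dividing cells differ between young and old CMPs.

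Entry into mitosis is driven by Cdk1 bound to cyclin B, which is held back by inhibitory phosphates until Cdc25 phosphatases remove them, and mitosis ends when the anaphase promoting complex, with Cdc20 and the ubiquitin-conjugating enzyme Ube2c, marks cyclin B and securin for destruction. The transcripts of these genes build up as cells pass through G2 and are low in resting cells, so they are widely read as marks of cycling cells. In many of their promoters the MuvB complex, with B-Myb and Foxm1, acts through the cell cycle genes homology region (CHR), and the factor NF-Y binds CCAAT boxes nearby. In bulk RNA of a sorted population, fewer dividing cells and less of these RNAs in each dividing cell cannot be told apart.

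Promoter sequence is shown first, as a description. The genes were chosen by name and not by sequence, but the CHR is already tied to promoters of such genes. Its share here is therefore not independent of the choice. RefSeq promoter windows of 300 bases, from 250 bases before to 50 bases after the annotated start on build GRCm38.p6, were found for 34 of the 42 genes, in 36 windows. No window was matched for Aurkb, Ccna2, Cdc25c, Foxm1, Incenp, Kif20a, Smc4 and Tpx2. The letters searched were TTTGAA and TTCGAA for the CHR and CCAAT for the NF-Y box, each on both strands, so that TTCAAA and ATTGG are the same elements read from the other strand. A CHR match was present in 28 of 36 windows, or 77.8%, against 19.2% of 32851 windows of all genes. A CCAAT match was present in 27 windows, or 75%, against 37.4%, and both were present in 25 windows, or 69.4%, against 7.52%. The windows of S-phase and replication genes, another set of proliferation genes, held a CHR match in 6 of 34, or 17.6%, and a CCAAT match in 18, or 52.9%. A match describes the letters in the window and says nothing about binding in these cells.

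The upstream stretches of 6 genes whose levels are given further on are printed 5′ to 3′ on the strand of the gene, in lower case with the CHR and CCAAT matches of either strand in capitals. Ube2c was the gene with the highest and Mki67 one of the genes with the lowest difference between the ages, and Top2a, Cdk1, Cdc20 and Bub3 stand for condensation, entry, anaphase and checkpoint. The stretches lie at chr2:164769689-164769913 on the forward strand for Ube2c, chr11:99024200-99024429 on the reverse strand for Top2a, chr10:69352913-69353127 on the reverse strand for Cdk1, chr7:135716464-135716574 on the reverse strand for Mki67, chr4:118437344-118437403 on the reverse strand for Cdc20 and chr7:131560290-131560350 on the forward strand for Bub3.
Ube2c: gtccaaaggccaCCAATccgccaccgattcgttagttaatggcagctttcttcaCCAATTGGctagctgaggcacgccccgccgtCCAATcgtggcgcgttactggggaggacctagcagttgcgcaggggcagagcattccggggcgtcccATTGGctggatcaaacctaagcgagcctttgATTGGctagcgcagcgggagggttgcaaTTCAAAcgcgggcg
Top2a: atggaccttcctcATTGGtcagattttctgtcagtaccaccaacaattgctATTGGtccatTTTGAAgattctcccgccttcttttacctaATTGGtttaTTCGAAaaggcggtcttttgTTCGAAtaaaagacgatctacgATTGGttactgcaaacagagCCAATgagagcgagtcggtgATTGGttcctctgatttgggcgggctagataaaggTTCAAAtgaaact
Cdk1: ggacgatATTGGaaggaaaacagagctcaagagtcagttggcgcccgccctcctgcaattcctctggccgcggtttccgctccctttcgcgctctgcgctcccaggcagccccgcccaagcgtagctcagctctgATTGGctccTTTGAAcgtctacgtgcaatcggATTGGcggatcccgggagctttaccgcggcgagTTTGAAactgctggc
Mki67: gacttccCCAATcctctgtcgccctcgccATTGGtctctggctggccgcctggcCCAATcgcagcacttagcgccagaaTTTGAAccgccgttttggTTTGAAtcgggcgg
Cdc20: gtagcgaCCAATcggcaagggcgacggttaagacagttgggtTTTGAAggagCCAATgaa
Bub3: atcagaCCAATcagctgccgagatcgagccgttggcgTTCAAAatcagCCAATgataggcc

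The stretch of Top2a held 4 CHR and 6 CCAAT matches, and that of Ube2c held 1 CHR and 6 CCAAT matches, of which a pair overlap on opposite strands. In Cdc20 and in Bub3 the 1 CHR match lay between 2 CCAAT boxes. By gene, 26 of the 34 had a CHR match, 25 a CCAAT match, 23 both and 6 neither, namely Birc5, Mad2l1, Pttg1, Nuf2, Nusap1 and Ncaph. Of the 25 tested genes with a CHR match 11 were higher in old mice, with a median log2 difference of -0.09, and of the 8 without one 5 were higher, with a median of 0.005. These are counts without a test.

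**Figure D1:**
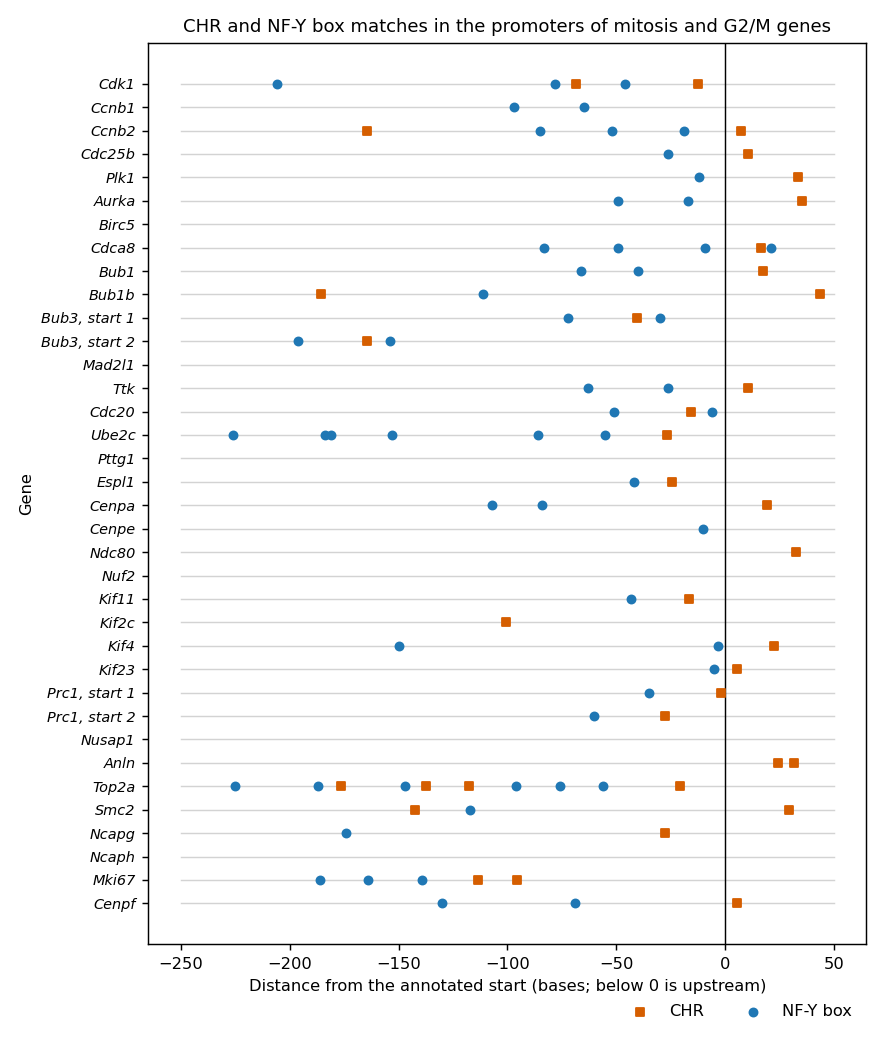
Positions of CHR matches (squares) and NF-Y boxes (circles) in the 36 promoter windows of 34 genes, by distance in bases from the annotated start, with upstream below 0. Both kinds of match occur in 25 of the 36 windows, and 6 genes have neither.

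Levels are log2 signals relative to the 75th percentile of the same array, so a level of 0 is the 75th percentile of the array and a level says nothing about 1 probe against another. Each gene is given by its brightest tested probe. Of the 42 genes, 41 were tested, and all 41 were well above background on all 8 arrays. Cenpf, a kinetochore and matrix protein of late G2, had 1 probe that was well above background on 0 arrays, so no level is given for it. The 75th percentile of the signal lay between 352 and 565 on young and between 290 and 518 on old arrays, and 55.6% to 63.2% of probes were well above background. Over all probes 2 arrays correlated at 0.969 or more. Of the genes that define the sort, Kit, Cd34 and Fcgr3 were well above background on all arrays, while Il7r was so on at most 1 array and the B cell factors Ebf1 and Pax5 on none. Ly6a, which encodes the Sca-1 that the sort excludes, was well above background on all 8 arrays, with levels from -0.35 to 0.03 on young and from -1.38 to -0.43 on old arrays.

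No mitosis or G2/M gene was called between the ages. A gene counted as called at an adjusted p under 0.05 from limma and a difference of at least 1.5-fold, which 58 of 23161 genes tested, or 0.25%, reached, 48 higher (0.207%) and 10 lower (0.0432%) in old mice. Of the 41 genes, 19 had a level above and 22 a level below that of young mice, against 47.6% above over all genes. The median log2 difference, old minus young, was -0.09, against -0.01 over all genes, and the range ran from -0.60 for Smc4 to 0.39 for Ube2c. The lowest adjusted p was 0.674 from limma, for Aurkb. At an unadjusted p under 0.05 there was 1 gene, Aurkb, against 6.62% of all genes.

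The intervals show the precision that 4 against 4 arrays gave. The standard error of a gene's difference was 0.22 at the median, from 0.17 to 0.45, and the 95% interval reached 0.50 to either side at the median. It lay within 2-fold either way for 35 of the 41 genes and within 1.5-fold for 16. In 15 genes the log2 difference was smaller than 0.1 either way, and in 1, Smc4, it reached 1.5-fold, against 8.68% of all genes.

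**Figure D2:**
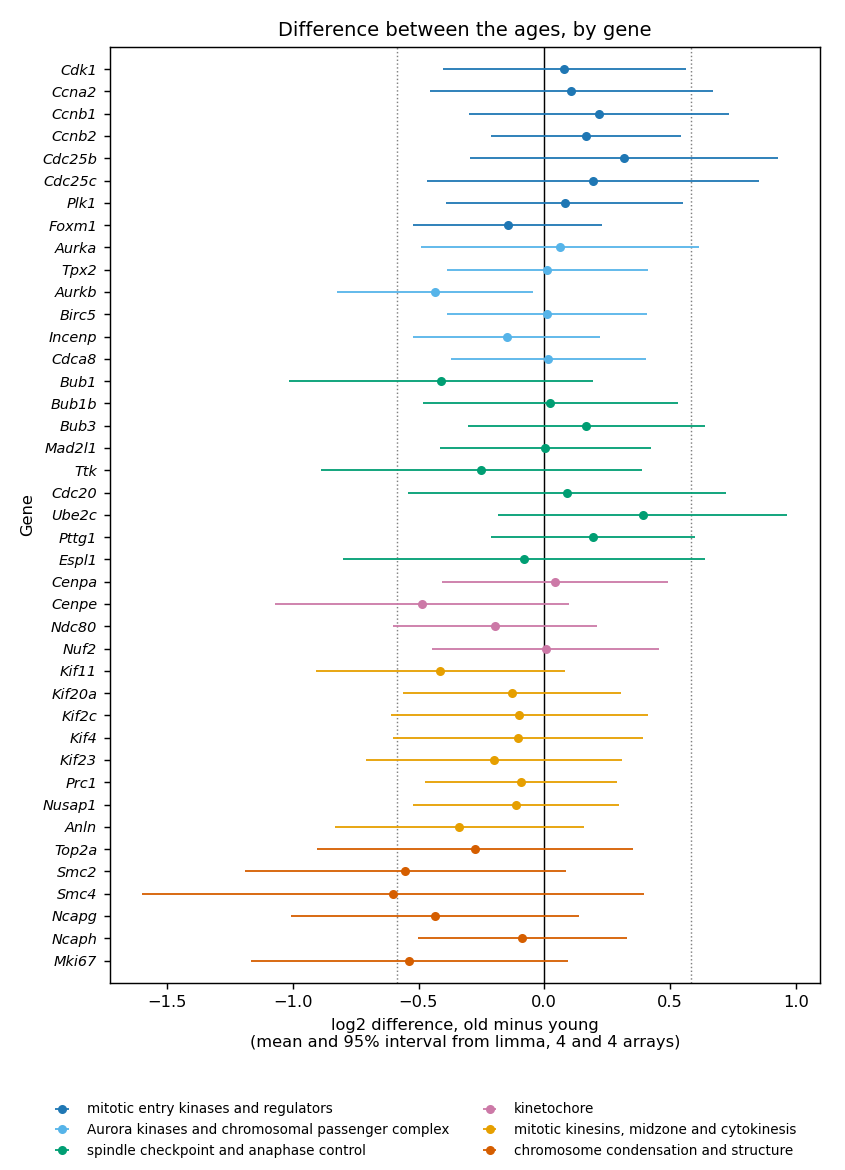
Difference between old and young CMPs for each of the 41 tested genes (log2, old minus young), with the 95% interval from limma over 4 and 4 arrays; dotted lines mark 1.5-fold. Intervals cross 0 for every gene but Aurkb, and all 14 genes of the kinesin and condensation groups sit left of 0, of which 4 of 8 and 1 of 6 pass 0 if arrays are shifted to their median.

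The kinases, cyclins and phosphatases of mitotic entry were slightly higher in old CMPs in 7 of 8 genes, with a median log2 difference of 0.14, and none was called. It was also 7 of 8 with normexp background correction, quantile normalization and a shift to the array median, but 4 of 8 within slide 2, and 3 of 8 with a median of -0.05 without young 3. Cdk1, the mitotic kinase itself, read 2.39, 3.11, 2.71 and 3.09 on young 3 to 6 and 3.16, 2.76, 2.72 and 2.97 on old 2 to 5. The old values lay inside the range of the young ones but for old 2, and the log2 difference was 0.08 ± 0.22 (SE). The dimmer tested probes of Cdk1 gave 0.004 and -0.04. Ccnb1, which encodes cyclin B1, read 3.33, 4.15, 3.32 and 3.81 in young and 3.67, 3.72, 3.97 and 4.12 in old mice. The groups overlapped, with young 3 and young 5 lowest, and the difference was 0.22 ± 0.23, from 0.11 to 0.38 when 1 array was left out. The dimmer tested probes of Ccnb1 gave -0.03 and 0.05, and the mean of its probes gave 0.08. Ccnb2 and Ccna2, the other mitotic cyclins of the set, had differences of 0.17 and 0.11.

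The activating phosphatases read lowest on young 3. Cdc25b read 1.27, 2.16, 2.49 and 2.39 in young and 2.32, 2.39, 2.22 and 2.67 in old mice, and Cdc25c read -1.59, -0.80, -0.67 and -0.29 in young and -0.76, -0.80, -0.91 and -0.12 in old mice. For both genes young 3 was far below the other arrays, the other young arrays overlapped with the old ones but for young 4, which lay below every old array for Cdc25b, and the log2 differences were 0.32 ± 0.27 and 0.19 ± 0.30. Without young 3 they were 0.05 and -0.06. Plk1, the polo kinase that promotes entry and spindle assembly, read 4.30, 4.85, 5.04 and 5.01 in young and 4.81, 4.82, 4.77 and 5.12 in old mice, a difference of 0.08 ± 0.21. Here too young 3 was lowest, and the other arrays of both ages overlapped. Foxm1, the transcription factor of the G2/M programme, was the exception in sign, with 1.33, 1.57, 1.40 and 1.43 in young and 1.43, 1.38, 1.04 and 1.30 in old mice. Its difference was -0.15 ± 0.17, with old 4 lowest and the ages overlapping.

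Aurkb was the 1 gene whose arrays did not overlap between the ages. Aurora B is the kinase of the chromosomal passenger complex, which corrects faulty attachments of chromosomes and steers cytokinesis. Its level was -1.48, -1.25, -1.56 and -1.30 on young 3 to 6 and -1.66, -1.97, -2.01 and -1.69 on old 2 to 5. All old arrays lay below all young arrays, by 0.44 on the log2 scale at the mean (SE 0.17, 95% interval -0.82 to -0.05), or 0.739 of the young level. Over all genes 4.84% did not overlap between the ages and 1.66% had all old arrays below and 3.18% above all young ones, so 1 of 41 was no more than the background. Within slide 1, the difference was -0.47 and within slide 2 it was -0.40, each from 2 young and 2 old arrays. The unadjusted p from limma was 0.0319 and the adjusted p 0.674, so Aurkb was not called. The probe lies at chr11:68865105-68865164 on the forward strand of build mm9.

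The partners of Aurora B had smaller differences, which were not tested against that of Aurkb. Birc5 (survivin), Cdca8 (borealin) and Incenp, the other subunits of the complex, had log2 differences of 0.01, 0.02 and -0.15. Aurka, which drives spindle pole maturation, and Tpx2, its activator, had differences of 0.06 and 0.01. The standard errors of these 5 genes ran from 0.17 for Incenp to 0.25 for Aurka, and the ages overlapped in each. The dimmer tested probe of Tpx2 gave -0.12. The median of the 6 genes was 0.01, with 4 of them above 0. It was 3 of 6 with normexp background correction and 4 of 6 with the shift to the array median. With quantile normalization 1 of 6 was above 0, with a median of -0.06.

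Among the 9 genes of the spindle checkpoint and of anaphase, 6 were higher in old mice, with a median log2 difference of 0.02. It was 4 of 9 with normexp background correction and with quantile normalization, and 7 of 9 with the shift to the array median. Within slide 1 it was 6 of 9 and within slide 2 it was 4 of 9. Without young 3 it was 3 of 9, with a median of -0.13. Ube2c, which starts ubiquitin chains on the substrates of the anaphase promoting complex, had the largest positive difference of the whole set. It read 2.96, 3.82, 3.47 and 3.46 in young and 4.25, 4.07, 3.42 and 3.54 in old mice, with old 2 and old 3 above every young array and old 4 and old 5 among them. The difference was 0.39 ± 0.26, or 1.31-fold, and the adjusted p from limma was 0.996. Its other tested probe gave 0.44, and without young 3 the difference was 0.24 and without old 2 it was 0.25. Cdc20, the activator of that complex, read 4.04, 4.66, 5.18 and 5.28 in young and 4.78, 4.68, 4.85 and 5.22 in old mice. The 4 young arrays spanned a wider range than the old ones, and the difference was 0.09 ± 0.28.

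Bub3, a checkpoint protein that docks on the kinetochore, read 4.14, 4.63, 4.82 and 4.99 in young and 4.89, 4.67, 4.80 and 4.88 in old mice. The 4 old arrays sat within the upper part of the young range, and the difference was 0.17 ± 0.21. Its probe of 60 bases spans 2217 bases of chromosome 7 in mm9. The checkpoint kinases Bub1 and Ttk lay lower in old mice, with differences of -0.41 ± 0.27 and -0.25 ± 0.29, while Bub1b, which restrains Cdc20, stood at 0.02. Pttg1 (securin) and Espl1 (separase), the inhibitor and the protease of sister separation, had differences of 0.19 and -0.08. The standard error of Espl1, 0.32, was among the widest of the set. For Mad2l1, another inhibitor of Cdc20, the brightest probe differed by 0.004 and the 2 dimmer probes by 0.24 and 0.39.

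In the outer kinetochore, Cenpe was lowest. Cenpe is a motor that carries chromosomes to the metaphase plate, and it read 1.57, 0.99, 0.49 and 0.54 in young and 0.17, 0.51, 0.67 and 0.30 in old mice. Young 3 and young 4 were above every old array, young 5 and young 6 were among the old ones, and the difference was -0.49 ± 0.26, with an adjusted p of 0.922 from limma. Without young 3 it was -0.26. Cenpa, the histone that marks the centromere, differed by 0.04, and Ndc80, which binds microtubules, by -0.20. Nuf2, the partner of Ndc80, differed by 0.01 at its brightest probe and by -0.60 and -0.26 at 2 dimmer probes, which were well above background on 3 young and 2 old arrays each. It was the only gene of the set whose probes differed in sign by more than 0.5. Of the 14 genes with several tested probes, 5 had probes of both signs.

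At their brightest probes, the 8 genes of mitotic kinesins, midzone and cytokinesis all lay below 0. This held with normexp background correction and quantile normalization, but within slide 2, 3 of the 8 were above 0. A shift of arrays to their median in place of their 75th percentile raised the median of all genes by 0.12. With it, 4 of the 8 genes of the kinesin group were above 0. Their median log2 difference was -0.12, from -0.41 for Kif11 to -0.09 for Prc1, or -0.11 relative to the median of all genes under either shift. Kif11 pushes the spindle poles apart, and Prc1 bundles the microtubules of the midzone. Anln, the anillin scaffold of the contractile ring, differed by -0.34 ± 0.22 and Kif23, of the centralspindlin complex, by -0.20 ± 0.23. Kif20a, Nusap1, Kif4 and Kif2c, which act on the midzone, on spindle microtubules, on chromosome arms and at centromeres, differed by -0.13, -0.11, -0.10 and -0.10. The dimmer tested probe of Kif2c gave 0.06 and that of Kif23 gave -0.58. None of the 8 genes was called, and the lowest adjusted p of the group was 0.922 from limma.

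The group of chromosome condensation and structure had the lowest median of the groups, a log2 difference of -0.48. All 6 genes lay below 0 (5 of 6 with the shift to the array median). Smc4, Smc2 and Mki67 were the lowest genes of the set, while Cenpe and Aurkb of other groups lay below Ncapg, Top2a and Ncaph. The median of the group was -0.35 with normexp background correction, -0.44 with quantile normalization and -0.37 with the shift to the array median. Smc2 and Smc4 are the ATPase core that all condensin complexes share, and Ncapg and Ncaph belong to condensin I. Smc2 read 1.87, 1.80, 0.90 and 1.18 in young and 0.34, 0.94, 1.30 and 0.97 in old mice. Young 3 and young 4 stood above all old arrays, and young 5 and young 6 among them. The difference was -0.55 ± 0.28, with an adjusted p of 0.904 from limma.

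Smc4 read 2.77, 1.93, 0.70 and 0.64 in young and 0.62, 1.03, 1.27 and 0.71 in old mice. Young 3 and young 4 stood above every old array, and young 5 and young 6 at the low end of the old ones. The difference was -0.60 ± 0.45, and it was -1.41 within slide 1, the slide that held both, and 0.20 within slide 2. Without young 3 it was -0.18. Ncapg differed by -0.43 ± 0.26, and Ncaph by -0.09 ± 0.19.

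Mki67 encodes Ki-67, which coats mitotic chromosomes and is the usual stain for cycling cells. It read 3.55, 2.92, 2.76 and 2.92 in young and 1.90, 2.43, 3.12 and 2.55 in old mice. Of the old arrays 3 lay below every young array, whereas old 4 lay above all young arrays but young 3, and the difference was -0.54 ± 0.28, with an adjusted p of 0.916 from limma. Its other tested probe gave -0.47, and without old 2 the difference was -0.33. Top2a, the topoisomerase that untangles sister chromatids, read 2.43, 3.29, 3.25 and 3.16 in young and 2.19, 2.74, 2.81 and 3.30 in old mice. The lowest array was old 2 and the next young 3, old 5 was level with the higher young arrays, and the difference was -0.27 ± 0.28. It was -0.08 without old 2, -0.47 without young 3 and -0.45 without old 5.

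**Figure D3:**
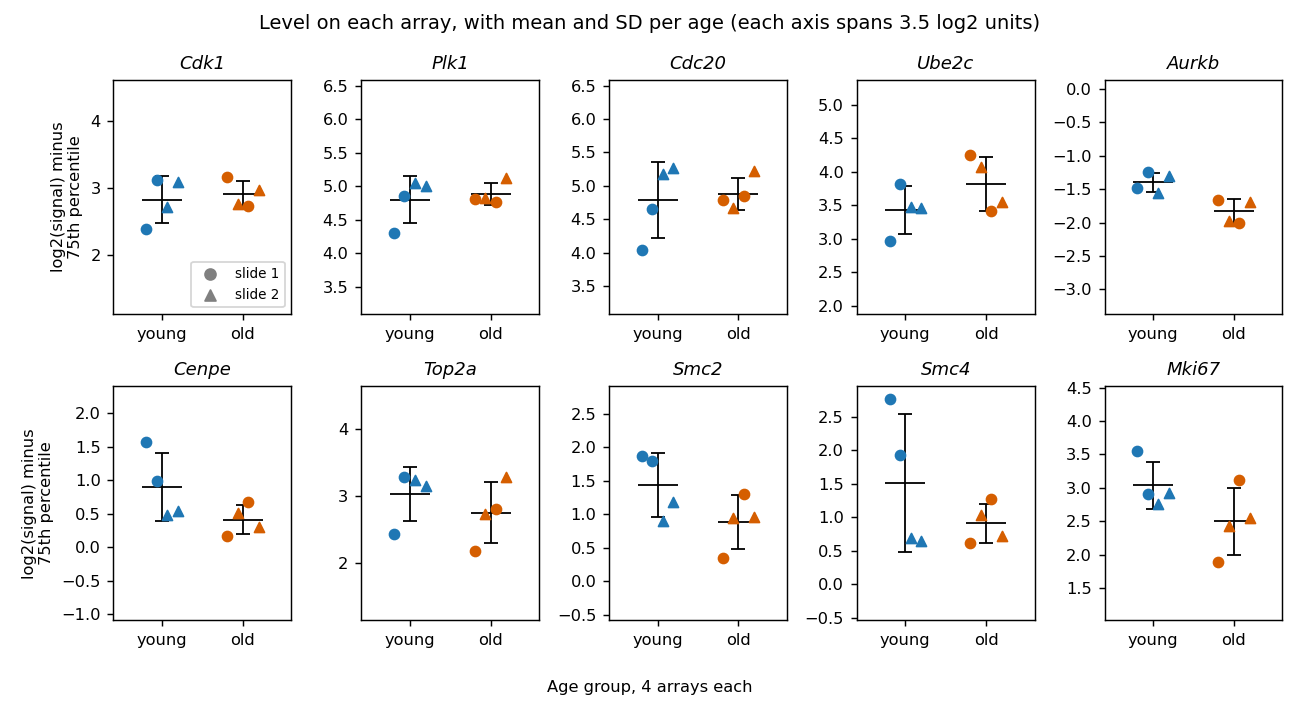
Levels of 10 genes on each array, on the log2 scale of the text, with the mean and SD of 4 arrays per age as black lines; circles are slide 1 and triangles slide 2, and each panel spans the same number of log2 units. The ages overlap in every panel except that of Aurkb, and young 3 is the lowest young array for Cdk1, Plk1, Cdc20, Ube2c and Top2a and the highest for Cenpe, Smc2, Smc4 and Mki67.

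Arrays of the same age differed from one another. Over both ages together, the range of a gene over the 8 arrays was 0.84 on the log2 scale at the median of the 41 genes. This was less than the 1.01 over all genes. Young 3 was the lowest of the 8 arrays for 18 genes and the highest for 5. It was lowest for 5 of 8 genes of mitotic entry, 4 of 6 of the Aurora group and 6 of 9 of the checkpoint and anaphase group, for 1 of 8 of the kinesin group and for 0 of 6 of the condensation group. Cenpe, Smc2, Smc4, Ncapg and Mki67 were the 5 genes highest there, Smc4 by 1.56 above its own mean. Young 4 was the highest array for 15 genes, 6 of them of the kinesin group, and the lowest for none.

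The old arrays differed among themselves as well. Old 2 was the lowest array for 11 genes, among them 5 of 6 of the condensation group, and the highest for 5, including Cdk1, Ccna2 and Ube2c. Old 5 was the highest for 10 and the lowest for none. Old 4 was the lowest for 7, among them Foxm1, Aurkb and Incenp, and old 3 for 1, Anln.

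**Figure D4:**
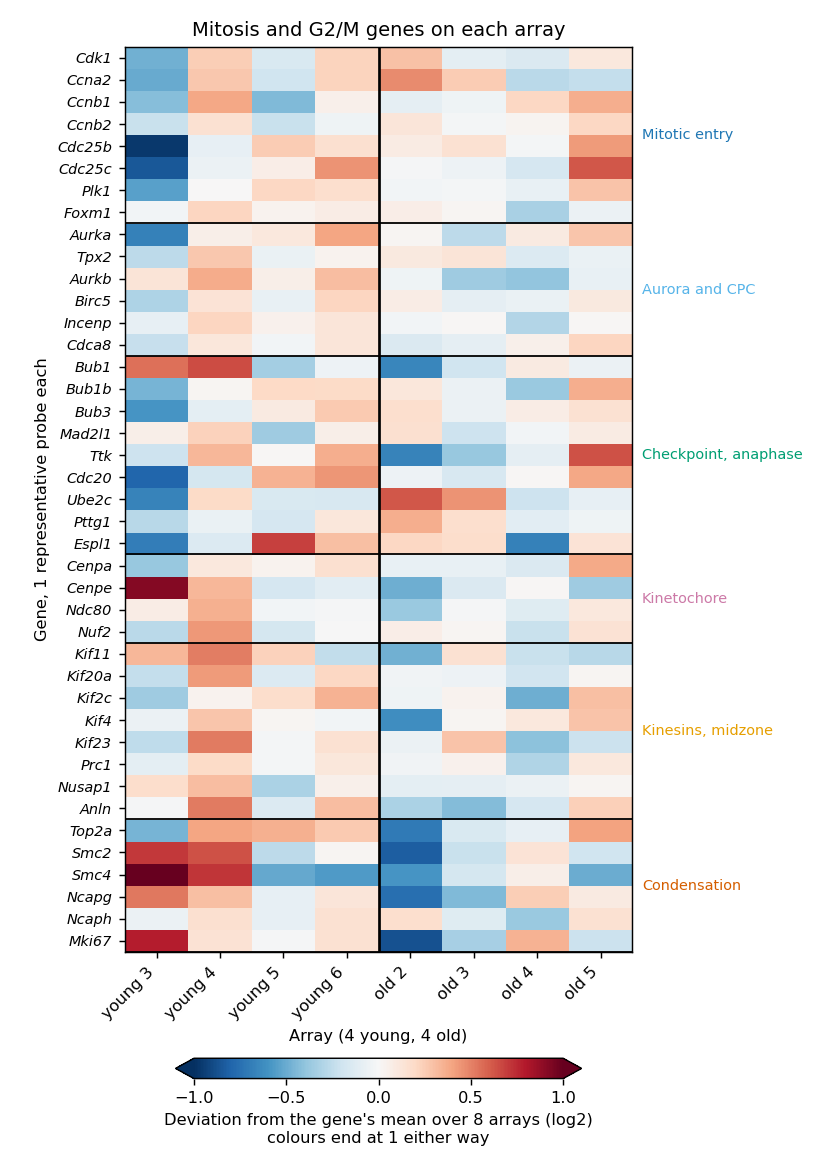
Deviation of each of 41 genes from its own mean over 8 arrays (log2, red above and blue below, colours end at 1), with genes in rows by role and arrays in columns. Young 3 is blue for most genes of mitotic entry, the Aurora group and anaphase and red for Cenpe, Smc2, Smc4, Ncapg and Mki67, and old 2 is blue for the latter.

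Young 3 was the lowest array for more genes than any other array, so the count of directions was also taken without it. It was not alone in standing off, as the median deviation of the genes was -0.24 on young 3 and 0.23 on young 4. Without young 3, 6 of the 41 genes in place of 19 were higher in old mice, with a median log2 difference of -0.14, and no gene was called. The 6 were Ccnb1, Ccnb2, Cdc25b, Mad2l1, Ube2c and Pttg1. Over all genes 44.9% were above 0 without young 3. The Aurora group then had 0 of 6 genes above 0, with a median of -0.12. The condensation median was -0.35 in place of -0.48. The S-phase genes moved in the same way, with 20 of 38 above 0 and a median of 0.003 over all arrays, and 7 of 38 and -0.11 without young 3. Without old 5, 11 of the 41 genes were above 0, and without old 2 it was 13. Other arrays moved the count up, with 21 above 0 without young 6 and 22 without old 4. With quantile normalization of all 8 arrays 12 of the 41 were above 0, with a median of -0.09, against 11205 of 23161 over all genes. With the shift to the array median 25 of the 41 were above 0, with a median of 0.03. Over all genes that shift put 15187 of 23161 above 0, with a median of 0.10. Relative to the median of all genes, the median of the 41 was -0.07 under either shift and -0.08 with quantile normalization.

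Each slide carried 2 arrays of each age, so the ages could be compared on each. On slide 1, with young 3, young 4, old 2 and old 4, the median difference was -0.16 with 17 genes above 0, and on slide 2 it was -0.03, also with 17 above 0. The condensation median was -0.70 on slide 1 and -0.14 on slide 2, and that of the kinesin group -0.34 and -0.04. Mitotic entry stood at 0.20 and 0.01.

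**Figure D5:**
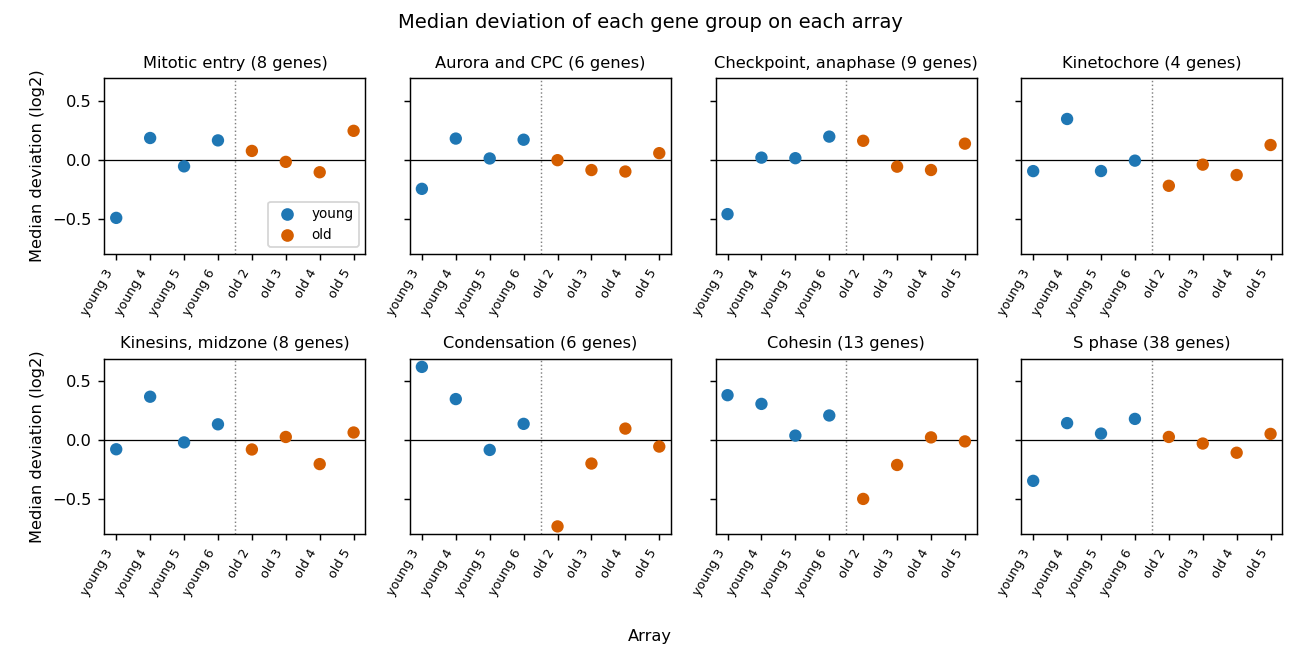
Median deviation from each gene's own mean (log2) on each array, for the 6 groups of mitosis and G2/M genes and for cohesin and S-phase genes; blue is young and orange old. Young 3 is lowest for mitotic entry, anaphase and S phase and highest for condensation and cohesin, and old 2 is lowest for condensation and cohesin.

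Within an age, genes of the set went up and down together from array to array. After the mean of each age was taken out, the correlation between 2 of the 41 genes over the 8 arrays was 0.26 at the mean of 820 pairs, and 72.0% of pairs were above 0. Over all pairs of genes tested the mean was 0.01, and over S-phase genes it was 0.31. Mitotic entry and Aurora genes were the most alike, with a mean of 0.62 between the groups and 100% of 48 pairs above 0. Condensation genes were apart from these, with means of -0.10 against mitotic entry and -0.06 against the Aurora group. They were not closely alike either, with a mean of 0.19 among themselves and 60% of 15 pairs above 0. Against kinetochore genes their mean was 0.23.

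The pair with the highest correlation was Cdc25b and Plk1 at 0.99, followed by Bub1 and Smc2, then Cenpe and Smc4, both at 0.98. The most opposed pairs were Bub3 with Smc4 at -0.93 and Bub3 with Cenpe at -0.92. Young 3 was the array farthest from the gene's own mean for Cdc25b (-0.96), Plk1 (-0.54), Cenpe (0.92), Smc4 (1.56) and Bub3 (-0.59). For Bub1 and Smc2 it was old 2. The correlations were not taken without these arrays. The values share arrays and their scaling, and are given as a description. The GC content of the probes moved with the difference among these genes, with a Spearman correlation of 0.30 over 41 genes whose probes held 18.3% to 53.3% GC, against -0.01 over all genes, and its part in the result was not tested.

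Other genes of the mitotic machinery were read for comparison. Of 113 such genes 109 were tested and 0 were called in either direction, 42 were above 0, and the median log2 difference was -0.05. At an unadjusted p under 0.05 from limma 1 was higher and 4 were lower, against 916 and 617 of 23161 over all genes. Cohesin, the ring that holds sister chromatids, and its regulators lay low like the condensation genes, with 0 of 13 genes above 0 (1 with normexp background correction and 2 with the shift to the array median). Their median was -0.43, from -1.18 for Sgol2 to -0.04 for Mau2. Young 3 was also the highest and old 2 the lowest array for the cohesin median, at 0.38 and -0.50.

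The subunits of the anaphase promoting complex had 6 of 15 genes above 0 and a median of -0.02, from -0.23 for Cdc27 to 0.19 for Anapc11. The remaining condensin subunits had 3 of 4 above 0, with Ncapg2 at -0.51 and Ncaph2 at 0.13. Further kinetochore proteins had 12 of 27 above 0 and a median of -0.02, and at an unadjusted p under 0.05 from limma 1 was higher and 1 lower. The higher one, Cenpt, which links the centromere to the outer kinetochore, read 1.99, 2.26, 2.38 and 2.43 in young and 2.91, 2.98, 2.73 and 2.94 in old mice, with all old arrays above all young ones by 0.62 at the mean (adjusted p = 0.308 from limma). It was the 1 such gene among the 109 other mitotic genes, while over all genes 3.18% had all old arrays above all young ones. So 1 of 109 was no more than the background. Further mitotic kinases and regulators had 13 of 24 above 0 and a median of 0.03, from Mastl at -0.62 to Cdkn3 at 0.40. Further spindle and cytokinesis proteins had 8 of 26 above 0 and a median of -0.13, from Kifc1 at -0.84 to Ckap2l at 0.37.

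Inhibitors of the cell cycle and genes of quiescence were mostly higher in old mice, although none was called. Of 8 tested, 7 were above 0, against 47.6% over all genes, with a median log2 difference of 0.36. At an unadjusted p under 0.05 from limma, 3 were higher and 0 lower, against 916 and 617 of 23161 over all genes. The lowest adjusted p of the list was 0.255 from limma. Cdkn2c, which encodes the Cdk4 and Cdk6 inhibitor p18, was highest with 0.81 (adjusted p = 0.528 from limma), and Ccng2 was lowest with -0.69. Cdkn2a and Cdkn2b were well above background on at most 1 and 3 arrays and were not tested. Among S-phase genes the differences ran from -0.41 for Pola1 to 0.24 for Ccne2, and none was called.

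Markers of other cell types differed between the ages beside these values. Megakaryocyte markers were above 0 in 13 of 13 genes, with a median of 1.16 and a summed level of 6.60 to 7.59 on young and 8.13 to 8.56 on old arrays, and Gp9 was called. Markers of stem cells were above 0 in 6 of 8 genes (median 0.54, summed level 3.17 to 3.58 and 4.00 to 4.41), with Hoxb5 called, and those of mast cells and basophils in 6 of 6 (median 0.79, 3.77 to 4.08 and 4.41 to 5.80), with Fcer1a called. Granulocyte and monocyte markers were below 0 in 9 of 9, with a median of -0.57 and a summed level of 10.02 to 10.44 on young and 9.70 to 9.82 on old arrays. Erythroid markers were above 0 in 5 of 11, with a median of -0.01, and markers of mature neutrophils in 1 of 4 and of lymphoid cells in 0 of 7. The genes of the CMP gate were above 0 in 1 of 6, Kit, with a median of -0.42 and a summed level of 6.76 to 7.14 on young and 6.56 to 6.91 on old arrays, among them Ly6a at -0.73, Flt3 at -0.62 and Fcgr3 at -0.47. The part of these cells in the levels of mitosis genes was not tested.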

How the data were processed

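RNA of CMPs was measured on 8 arrays of 62976 spots, 4 of young and 4 of old mice, 1 colour each. The authors labelled total RNA with Cy3, and per the submitters' processing notes the scans were read with Agilent Feature Extraction 10.7.3.1. The deposited scanner files give each spot's background-corrected intensity on a linear scale, mm9 probe coordinates and the software's calls of background, saturation and outliers. The authors also deposited log2 values of the series, scaled by the 75th percentile and centred per gene, which followed the intensities (r of 0.999 on each array) and served only as an alternative.

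From the intensities of 59305 non-control spots, the log2 signal was taken relative to the 75th percentile of its array. Outlier spots were left out (141 to 230 per array), 0 spots were saturated, and spots of a probe were averaged. Probes well above background on at least 4 of 8 arrays were tested (33479 probes, 23161 gene names), old minus young, with lmFit and eBayes of limma 3.58.1 in R 4.3.3, and p-values were adjusted over all tested probes by the Benjamini-Hochberg method. A gene was called at an adjusted p under 0.05 and at least 1.5-fold at any tested probe. The step was checked on simulated data. Arrays have no sequencing depth, so the number of arrays limits the precision.

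Values on each array are given for genes called or not overlapping, the 4 highest, the 4 lowest and 9 well-known members. Of the other mitotic lists, the gene with the largest difference in each direction is named, except for a gene that is not reported here. The members, the gene lists and these rules were chosen with earlier results of these data known. Cell type markers were lists for the CMP gate, stem cells, megakaryocytes, erythroid cells, granulocytes and monocytes, mature neutrophils, lymphoid cells, and mast cells and basophils. Same-numbered young and old arrays did not deviate together (r from -0.15 to 0.18), so the numbers were not taken as pairs. The alternatives were normexp with an offset of 50, quantile normalization, a median shift, the deposited log2 values, 3 other filters, the mean of a gene's probes, array weights, robust variances with an intensity trend, slide or replicate number as a block, each slide alone, no adjustment, and leaving out each array. Ska2, Ska3, Mis18a, Bora and Ly6c2 were not on the array under these names.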

Additional observations from a re-analysis of the deposited data

Results flagged for a closer look

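In 5 of the 82 groups of 4 arrays that the 41 genes give, 1 array lay far from the other three by Dixon's ratio of its gap to the range of the group, above its 95% critical value for a group of 4. Chance gives about 1 in 20 such groups. For Cenpa, old 5 was highest among the old arrays (ratio 0.870, level 3.68 against 3.22 for the next). For Plk1, old 5 was also highest among the old arrays (ratio 0.857, level 5.12 against 4.82). For Espl1, old 4 was lowest among the old arrays (ratio 0.919, level 1.095 against 1.908), and for Incenp it was again lowest (ratio 0.862, level 5.05 against 5.32). For Top2a, young 3 was lowest among the young arrays (ratio 0.844, level 2.43 against 3.16). The genes were not called with or without these arrays.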

How the results depend on the processing

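No mitosis or G2/M gene was called under any of the 23 alternatives, and the lowest adjusted p of a gene with values on each array was 0.151 (Aurkb). The median over the genes stayed between -0.16 and 0.03. Of 345 values of single genes 327 kept their direction. Reversed log2 differences were, with array weights, Cdk1 -0.082, Cdc25c -0.10, Plk1 -0.046, Bub3 -0.029 and Cdc20 -0.21, with normexp background correction Cdc20 -0.029, and within slide 2 Cdk1 -0.032, Plk1 -0.056, Bub3 -0.13, Cdc20 -0.28 and Smc4 0.20. Leaving out 1 array gave ranges of -0.067 to 0.18 for Cdk1, -0.056 to 0.38 for Cdc25c, -0.086 to 0.16 for Plk1, -0.0019 to 0.28 for Bub3 and -0.16 to 0.25 for Cdc20. The number of genes above 0 was 12 with quantile normalization, 7 with array weights and 6 to 22 when 1 array was left out. Over all genes, the count called higher was 75 with normexp, 24 without a filter, 27 with a filter on at least 1 array, 77 with an intensity trend and robust variances, 190 with array weights, 0 within slide 1, 0 within slide 2, 777 without adjustment and 22 to 37 when 1 array was left out. The count called lower was 21 with normexp, 3 with quantile normalization, 5 with a median shift, 6 with the deposited table, 2 without a filter, 6 with a filter on all 8 arrays, 2 with a filter on at least 1 array, 88 with array weights, 4 with slide as a block, 0 within slide 1, 0 within slide 2, 631 without adjustment and 2 to 6 when 1 array was left out. With the replicate block, 12 genes were called higher and 1 lower. Without adjustment, 1 gene of the other mitotic lists was called higher and 4 lower. The cause was not tested, except that within a slide only 4 arrays enter. What can be resolved is limited by 4 arrays per age and by how far a probe lies above background.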
